A study of Mus musculus with 12 samples.

Results

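The genes described here encode the nuclear subunits of the mitochondrial respiratory chain and ATP synthase, and 89 of the 19935 genes tested belong to them. They were chosen by symbol alone: all genes whose symbol begins with Ndufa, Ndufb, Ndufc, Ndufs, Ndufv, Uqcr, Cox4 to Cox8 or Atp5, and the 4 Sdh genes. By complex, 36 belong to complex I, 4 to complex II, 8 to complex III, 17 to complex IV and 17 to complex V, and the other 7 are Ndufaf genes, which encode assembly factors of complex I rather than subunits. Cox7c and Ndufb4, whose array probe sets carry more than 1 gene symbol, were not analysed here.

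RNA of the anterior prostate, a paired lobe that lies beside the seminal vesicles, was measured in APT121 and wild type male mice on whole-transcript arrays. APT121 mice express T121, a piece of the SV40 large T antigen that blocks pRb and its relatives, from the probasin promoter, which is active in prostate epithelium, and they develop prostatic intraepithelial neoplasia (PIN), a precursor lesion of carcinoma. All mice, APT121 and wild type, were of the F3 generation of a cross of C57BL/6J and DBA/2, ate the AIN93G purified diet from 3 weeks of age and were killed at 12 weeks. Each array holds the pooled RNA of 2 mice, so 4 APT121 arrays stand for 8 mice and 8 wild type arrays for 16 mice, and error terms describe the spread between pools.

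The respiratory chain passes electrons from NADH (complex I) and succinate (complex II) through ubiquinone, complex III and cytochrome c to oxygen at complex IV. Complexes I, III and IV pump protons, and complex V uses the gradient to make ATP. In complexes other than complex II, a few core subunits hold the redox centres, the proton channels or the catalytic sites. Around them sit many small supernumerary subunits that are needed for assembly and stability. The mouse prostate is a secretory gland with abundant mitochondria, and its human counterpart is known for exporting citrate instead of oxidising it fully.

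Values are log2 intensities, differences are the APT121 mean minus the wild type mean, in log2 units, with the standard error (SE), means are given with the SD over 4 APT121 and 8 wild type arrays, and adjusted p-values come from limma with Benjamini-Hochberg adjustment over all 19935 genes. A gene is said to have risen or fallen where its adjusted p was under 0.05. An array value depends on the probes as well as on the RNA, so no gene's level is set against another's.

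Whole-tissue facts bear on every result below. Luminal markers were present in all arrays: Krt18 averaged 11.45 ± 0.03 in APT121 and 11.48 ± 0.06 in wild type. In APT121, 5 of 5 cycling-cell markers measured rose, and 4 of 7 luminal markers rose while 2 fell. All 4 basal, 8 smooth muscle, 6 fibroblast and 6 adipose markers fell, as did 6 of 7 endothelial ones, and 6 of 7 myeloid markers rose. Summed marker intensity was 6668 to 8958 in APT121 and 11041 to 12745 in wild type for smooth muscle, 1680 to 2888 in APT121 and 3417 to 4017 in wild type for fibroblasts, 11601 to 12236 in APT121 and 7852 to 8932 in wild type for luminal epithelium, and 3471 to 4882 in APT121 and 431 to 577 in wild type for cycling cells. In bulk tissue, fewer cells of a type and less RNA per cell cannot be told apart, and the part of these shifts in the subunit differences was not tested. Wild type arrays 5, 6 and 7 stood apart: arrays 5 and 7 carried brown fat transcripts (Ucp1 at 5.79 and 6.84, against 3.67 to 3.94 in wild type arrays 1 to 4 and 8), and array 6 had 4.77 of Ucp1 and carried the seminal vesicle transcript Svs2 at 12.93. The APT121 arrays also had Svs2 at 9.93 to 13.26, and they shared some seminal vesicle transcripts of array 6 but not others. Svs4, Svs5 and Pate4 were at 9.95, 12.15 and 11.14 in wild type array 6. In APT121 they were at 5.12 to 8.27, 8.59 to 12.28 and 6.98 to 11.53. In the other wild type arrays they were at 3.48 to 5.37, 4.37 to 5.75 and 3.26 to 4.04. Svs1, Svs3a and Svs6 were at 6.96, 6.45 and 5.86 in wild type array 6. In APT121 they were at 3.53 to 4.17, 2.31 to 2.89 and 2.67 to 3.26.

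Respiratory chain genes were mostly lower in APT121. Of the 89 genes, 48 (53.9%) fell, 4 rose and 37 did not pass, whereas 30.0% of all genes tested fell and 22.8% rose. The median difference of the 89 was −0.21, and that of all genes tested was −0.09. In 37 of the 89 genes all 4 APT121 arrays lay below all 8 wild type arrays, an order that 16.9% of all genes showed, and in 3 they all lay above, an order that 17.7% of all genes showed. Falls of at least 1.5-fold were found for 14 of the 89, against 6.34% of all genes, and 4 of them (Ndufa1, Uqcr11, Uqcrq and Atp5l) fell at least 2-fold. None of the 89 rose by 1.5-fold.

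Array by array, the median deviation of the 89 genes from their wild type means was −0.27, −0.20, −0.17 and −0.23 in APT121 arrays 1 to 4, and −0.10 to 0.06 in the wild type arrays. The 2 groups did not overlap. Within wild type, arrays 1 to 4 had medians of −0.03, 0.00, −0.08 and −0.10, all below those of arrays 5 to 8 at 0.06, 0.01, 0.06 and 0.04. Against wild type arrays 1 to 4 alone, 36 of the 89 fell and 9 rose, beside 24.2% and 20.4% of all genes. Against wild type arrays 5 to 8 alone, 52 fell and 4 rose, beside 28.0% and 22.3% of all genes. Without wild type arrays 5, 6 and 7, 41 fell and 7 rose, beside 25.5% and 21.2% of all genes, and all 41 were among the 48. The labels give no reason for this difference between wild type arrays 1 to 4 and 5 to 8.

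**Figure D1:**
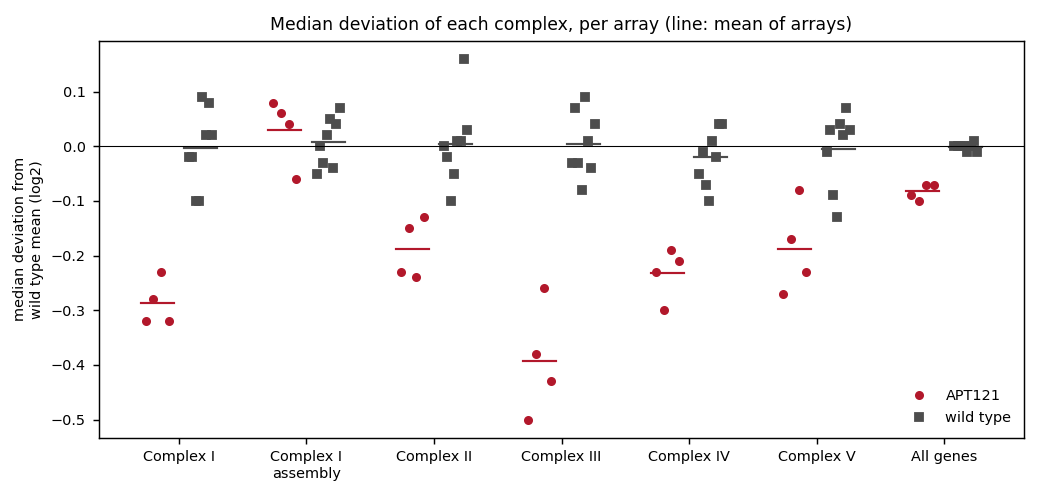
Median deviation of the genes of each complex from their wild type means (log2, vertical axis) for each APT121 array (red circles) and each wild type array (grey squares), with the mean of the arrays as a line. In complexes I to IV all 4 APT121 arrays lie below all 8 wild type arrays, complex V and the complex I assembly factors overlap between the groups, and the median of all genes lies between −0.10 and −0.07 in APT121.

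Other choices of genes and test left most of these calls lower. Among the 80 subunit and assembly genes at or above the median gene's mean, tested without the dimmer part of the array, 47 fell and 5 rose, beside 33.4% and 37.8% of the 9968 genes left, and the median difference was −0.23 against 0.03 for those genes. A SAM-type statistic, the kind of test the study's own design names, called 58 of the 89 lower and 9 higher, beside 44.9% and 27.0% of all genes. The 9 dim members (Cox4i2, Cox6a2, Cox6b2, Cox7b2, Cox8b, Cox8c, Ndufa4l2, Ndufaf5 and Ndufaf6) lay below the median gene mean of 5.43, and no detection call shows that they were above background.

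**Figure D2:**
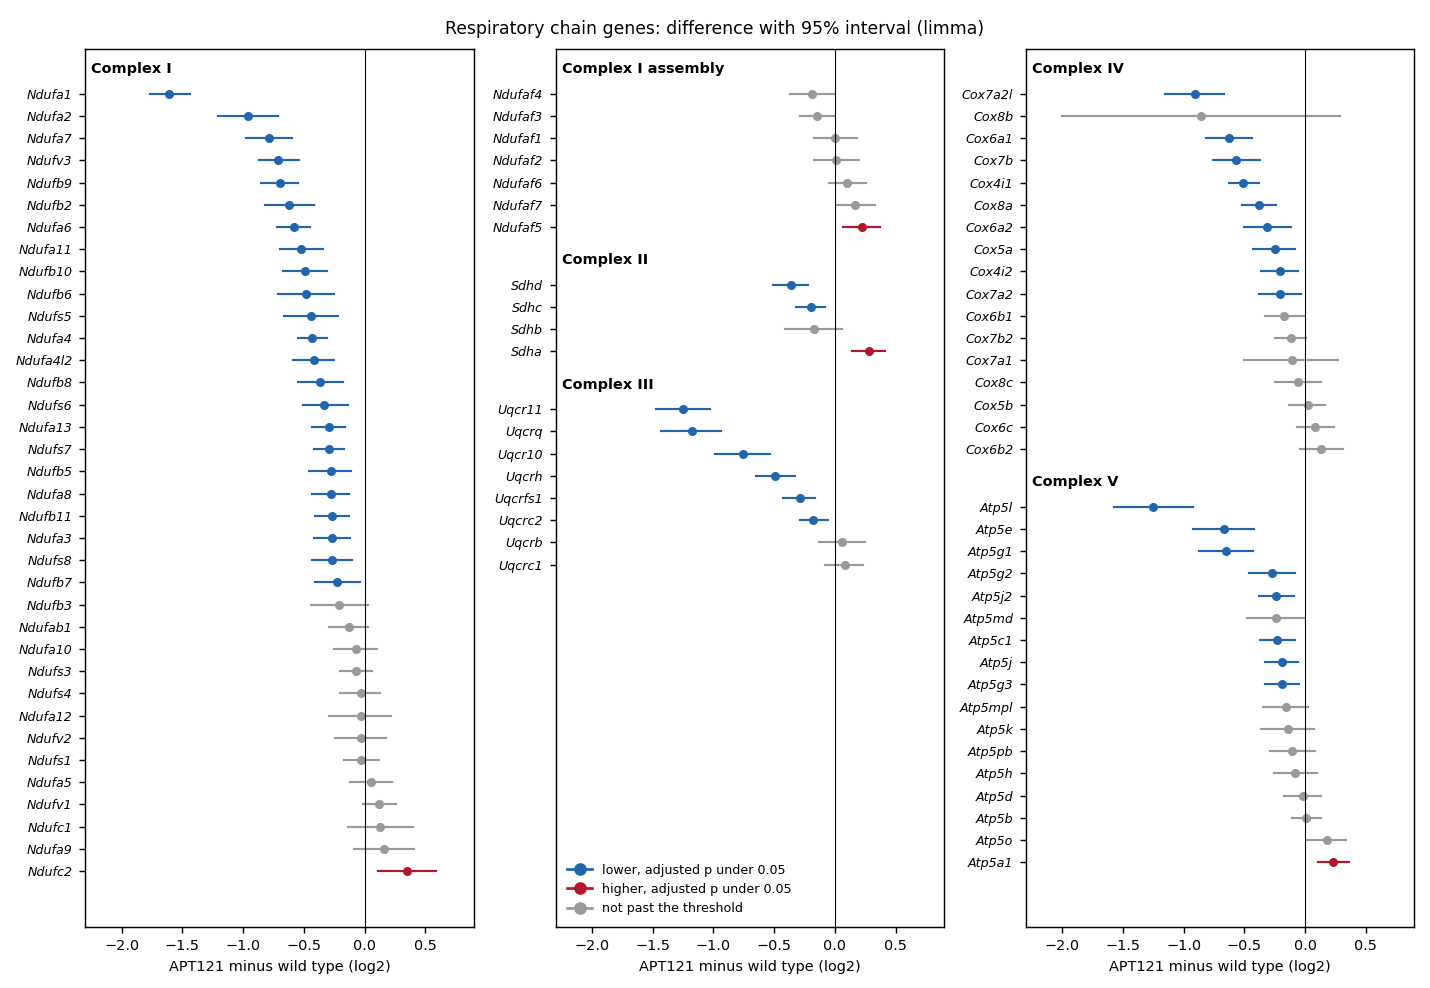
Difference of each of the 89 genes (APT121 minus wild type, log2, horizontal axis) with its 95% interval from limma, by complex, in blue where lower and red where higher at an adjusted p under 0.05, and grey otherwise. The longest falls are those of Ndufa1 (−1.61), Uqcr11 and Atp5l (both −1.25) and Uqcrq (−1.18). Core subunits vary. Ndufs1, Uqcrc1 and Atp5b lie near 0, Ndufs7 (−0.29), Uqcrfs1 (−0.29) and Uqcrc2 (−0.18) lie lower, and Sdha (0.28) and Atp5a1 (0.23) lie higher.

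Promoters are shown because so many members moved together, and because 3 transcription factors are known to control respiratory genes: NRF1, the ETS factor GABP and YY1. Promoters (250 bases before to 50 after the gene start, RefSeq, GRCm38.p6) were matched for 73 of the 89 genes. The NRF1 letters GCGCATGC, on either strand, stood in 12 of the 73 promoters (16.4%) and in 3.05% of the 27025 genes with a promoter in that table. The ETS letters ACTTCCGG stood in 5 (6.85%, against 4.31% of all), and the YY1 letters AAGATGGC in 10 (13.7%, against 3.19% of all). Of the 12 genes with the NRF1 letters, 7 fell, 1 rose and 4 did not pass, beside 39 that fell, 3 that rose and 31 that did not pass among all 73. Of the 10 with the YY1 letters 6 fell and 4 did not pass, and of the 5 with the ETS letters 3 fell and 2 did not pass. A match describes the letters in the window and does not show that a factor binds. The stretches that follow are the matches lying wholly before the gene start in genes that fell. They are shown 5′ to 3′ on the gene's strand, with the motif in capitals, and the capitals are longer where matches on both strands overlap. NRF1 letters come first.
Ndufa6: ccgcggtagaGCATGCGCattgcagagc
Ndufa8: cgctggagacGCATGCGC
Ndufa11: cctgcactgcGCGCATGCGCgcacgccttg
Cox6a1: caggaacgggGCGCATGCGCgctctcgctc
Atp5g2: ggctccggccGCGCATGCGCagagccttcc
Atp5l: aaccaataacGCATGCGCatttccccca
The ETS letters stood in these stretches.
Uqcr11: tctctcctccCCGGAAGTagatgtcaat
Uqcrh: agtatgccgcACTTCCGGcca
The YY1 letters stood wholly before the start in 1 gene that fell.
Atp5j: aagtgtaggaAAGATGGCggagtcttag
On GRCm38.p6 the complex I stretches lie at chr15:82354357-82354384 (Ndufa6, minus strand), chr2:36049339-36049356 (Ndufa8, minus strand) and chr17:56717692-56717721 (Ndufa11, plus strand). The other NRF1 stretches lie at chr5:115349101-115349130 (Cox6a1), chr15:102671070-102671099 (Atp5g2) and chr9:44920965-44920992 (Atp5l), all on the minus strand. The remaining ones, also on the minus strand, lie at chr10:80406870-80406897 (Uqcr11), chr4:116075071-116075091 (Uqcrh) and chr16:84835047-84835074 (Atp5j). Ndufa6, Cox6a1, Atp5l and Atp5g2 carry the same core letters, and their differences ran from −1.25 (Atp5l) to −0.27 (Atp5g2). Sdhb, Ndufaf4 and Atp5k also carry NRF1 letters before the start, and their differences, −0.17, −0.19 and −0.14, did not pass. Atp5h carries ETS letters before the start, and its difference of −0.08 did not pass.

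Complex I was lower in APT121 mainly among its supernumerary subunits. Of its 36 genes 23 (63.9%) fell, 1 rose and 12 did not pass, with a median difference of −0.28. The 28 supernumerary subunits counted 19 that fell (67.9%), 1 that rose and 8 that did not pass, with a median of −0.29. The 6 core subunits measured counted 2 that fell (33.3%) and 4 that did not pass, with a median of −0.05. Of all genes 30.0% fell and 22.8% rose. The split between core and supernumerary subunits was described and not tested.

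Ndufa1, a small X-linked membrane-arm subunit required for assembly, gave the largest difference of all 89 genes. It measured 8.03, 8.18, 8.32 and 7.96 in the APT121 arrays, against a lowest of 9.56, a median of 9.74 and a highest of 9.84 in wild type. All APT121 values lay more than 1 log2 unit below the lowest wild type value. Its means were 8.12 ± 0.16 in APT121 and 9.73 ± 0.10 in wild type, a difference of −1.61 ± 0.08 (adjusted p 7.56e-11), so wild type was 3.04-fold higher. Ndufa2, a matrix-arm accessory subunit, measured 7.39, 7.63, 7.92 and 7.16 in APT121, against 8.19, 8.49 and 8.65 (lowest, median and highest) in wild type. The groups did not overlap, though the APT121 arrays spread over 0.33 (SD), wider than the 0.15 of wild type. Its difference was −0.96 ± 0.12 (adjusted p 4.94e-06).

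Further accessory subunits of the matrix arm fell by less. Ndufa7 had 6.31, 6.74, 6.51 and 6.42 in APT121, against 7.07, 7.31 and 7.48 in wild type, and fell by 0.79 ± 0.09 (adjusted p 1.70e-06). Ndufv3, an accessory subunit of the NADH-binding flavoprotein part, had 7.04, 6.99, 7.02 and 6.83 in APT121, against 7.57, 7.62 and 7.96 in wild type, and fell by 0.71 ± 0.08 (adjusted p 1.35e-06). Both genes were separated between the groups. Ndufa6, an accessory subunit of the LYR-motif family, had 8.01, 8.03, 8.16 and 7.97 in APT121, against 8.51, 8.63 and 8.75 in wild type. Its difference of −0.58 ± 0.06 (adjusted p 1.10e-06) was several times the spread within either group.

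Membrane-arm subunits with Ndufb symbols fell as well. Ndufb9, also of the LYR-motif family, had 7.37, 7.50, 7.48 and 7.46 in APT121, against 8.04, 8.12 and 8.35 in wild type, and fell by 0.70 ± 0.07 (adjusted p 5.52e-07). Ndufb2 had 5.48, 5.65, 5.74 and 5.71 in APT121, against 5.97, 6.28 and 6.48 in wild type, and fell by 0.62 ± 0.09 (adjusted p 3.41e-05). Neither gene overlapped between the groups. Ndufa11, a membrane-arm subunit next to the contact with complex III, had 7.33, 7.25, 7.53 and 7.20 in APT121, against 7.65, 7.87 and 7.99 in wild type, a difference of −0.52 ± 0.09 (adjusted p 8.36e-05). A second probe set of Ndufa11 gave −0.46. Smaller falls, in either arm, were found for Ndufb10 (−0.49), Ndufb6 (−0.48), Ndufs5 (−0.44), Ndufb8 (−0.37), Ndufs6 (−0.33), Ndufa13 (−0.29), Ndufb5 (−0.28), Ndufa8 (−0.28), Ndufb11 (−0.27), Ndufa3 (−0.27) and Ndufb7 (−0.23). Of these, Ndufb7 rested on single arrays: its adjusted p of 0.0398 became 0.136 without APT121 array 1, 0.139 without APT121 array 4, 0.0686 without APT121 array 2, and 0.0589 to 0.0655 without wild type array 1, 2, 5, 7 or 8. Ndufs6 lost its call with wild type arrays 5 to 8 alone (−0.26, adjusted p 0.0504).

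The core subunits of complex I, which carry the flavin and the iron-sulphur clusters, had smaller differences. Ndufs7 fell by 0.29 ± 0.06 (adjusted p 5.94e-04), with 8.69, 8.78, 8.63 and 8.78 in APT121, against 8.94, 8.99 and 9.12 in wild type. Ndufs8 fell by 0.27 ± 0.08 (adjusted p 0.00965), a call that ended (adjusted p 0.12) when only wild type arrays 1 to 4 were used. The 4 others did not pass. Ndufv1, the NADH-binding subunit, had a difference of 0.12 with a 95% interval of −0.01 to 0.26. Ndufs1 had 8.30, 8.33, 8.33 and 8.30 in APT121, against 8.21, 8.34 and 8.54 in wild type, a difference of −0.03 (interval −0.17 to 0.12). Ndufs3 and Ndufv2 differed by −0.07 and −0.03, with intervals of −0.20 to 0.06 and −0.24 to 0.18.

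One supernumerary subunit rose. Ndufc2, of the membrane arm, had 9.99, 10.02, 9.75 and 10.11 in APT121, against 9.30, 9.68 and 9.91 in wild type, so APT121 array 3 lay within the wild type range. Its difference of 0.35 ± 0.11 (adjusted p 0.0173) became 0.30 without APT121 array 4 (adjusted p 0.061), and it was 0.17 with wild type arrays 5 to 8 alone (adjusted p 0.133). Ndufa9 and Ndufc1 gave 0.16 and 0.13 and did not pass, and both rose when wild type arrays 1 to 4 alone were used (0.37 and 0.34, adjusted p 0.0053 and 0.0198).

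Ndufa4 carries a complex I symbol but is now assigned to complex IV. It had 10.66, 10.69, 10.68 and 10.64 in APT121, against 10.94, 11.11 and 11.17 in wild type, and fell by 0.43 ± 0.06 (adjusted p 1.12e-05). The groups were separated, with an SD of 0.02 over the APT121 arrays. Its paralogue Ndufa4l2, known in other tissues as a hypoxia-induced gene, also fell (−0.42 ± 0.08, adjusted p 3.72e-04), at values of 4.06 to 4.32 in APT121 and 4.42 to 4.83 in wild type that are among the dim ones.

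None of the 7 Ndufaf assembly factors fell, 1 rose and 6 did not pass, with a median of 0.01. Whether they differ from the subunits was not tested. Ndufaf5, which modifies an arginine of Ndufs7 during assembly, had 4.29, 4.08, 4.10 and 4.13 in APT121, against 3.79, 3.92 and 4.07 in wild type. The lowest APT121 value lay just above the highest wild type value. Its difference of 0.22 ± 0.07 (adjusted p 0.0142) was 0.18 without APT121 array 1 (adjusted p 0.0681) and 0.17 with median centring of each array (adjusted p 0.0545), at dim values. Ndufaf3 and Ndufaf4 differed by −0.15 and −0.19 (adjusted p 0.0603 and 0.0831). Median centring called both lower (−0.20 and −0.24, adjusted p 0.0183 and 0.023). Quantile normalisation did so too (−0.32 and −0.34, adjusted p 2.80e-04 and 0.00493), but it called Ndufaf6 higher (0.21, adjusted p 0.0222). Ndufaf7, a methyltransferase, differed by 0.17 (adjusted p 0.0564), and Ndufaf1, Ndufaf2 and Ndufaf6 by 0.00, 0.01 and 0.10. Once the dimmer 50% of genes were left out, Ndufaf3 was called lower (adjusted p 0.0367) and Ndufaf7 higher (adjusted p 0.0373).

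Complex II is also succinate dehydrogenase of the citric acid cycle, and of its 4 genes 2 fell, 1 rose and 1 did not pass. Sdha, the flavoprotein with the catalytic site, rose: it had 9.79, 9.81, 9.70 and 9.80 in APT121, against 9.41, 9.49 and 9.63 in wild type, a difference of 0.28 ± 0.06 (adjusted p 0.00144). No wild type array reached the lowest APT121 value. The membrane anchors Sdhd and Sdhc fell. Sdhd had 8.47, 8.56, 8.49 and 8.39 in APT121, against 8.69, 8.83 and 9.03 in wild type (−0.36 ± 0.07, adjusted p 3.80e-04). Sdhc had 9.53, 9.58, 9.44 and 9.56 in APT121, against 9.65, 9.72 and 9.82 in wild type (−0.20 ± 0.06, adjusted p 0.00956). Both anchors were separated between the groups, but with wild type arrays 1 to 4 alone the adjusted p of Sdhc was 0.0501. The iron-sulphur subunit Sdhb differed by −0.17 and did not pass (interval −0.41 to 0.06). It was called lower (−0.36, adjusted p 0.00134) when only wild type arrays 5 to 8 were used, and with quantile normalisation (−0.32, adjusted p 0.027).

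Complex III had the lowest median of the 5 complexes (−0.39): 6 of its 8 genes fell (75.0%) and 2 did not pass. The largest falls were those of Uqcr11 and Uqcrq. Uqcr11, a small accessory subunit, had 6.88, 7.23, 7.40 and 6.88 in APT121, against 8.07, 8.36 and 8.51 in wild type. Its means of 7.10 ± 0.26 in APT121 and 8.35 ± 0.13 in wild type gave −1.25 ± 0.10 (adjusted p 4.47e-08), and wild type was 2.38-fold higher. A second probe set of Uqcr11 gave a smaller fall, −0.91. Uqcrq, a ubiquinone-binding accessory subunit, had 7.18, 7.47, 7.73 and 7.18 in APT121, against 8.23, 8.59 and 8.78 in wild type, a difference of −1.18 ± 0.12 (adjusted p 3.25e-07). In both genes APT121 arrays 1 and 4 were the lowest and array 3 the highest of the 4, and none reached the wild type range.

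Uqcr10, another small accessory subunit, showed the same order, with 6.82, 7.29, 7.47 and 6.92 in APT121, against 7.72, 7.94 and 7.98 in wild type (−0.76 ± 0.11, adjusted p 1.95e-05). Uqcrh, the hinge protein that helps cytochrome c1 hand electrons to cytochrome c, had 9.25, 9.35, 9.58 and 9.30 in APT121, against a lowest of 9.73 and a median of 9.86 in wild type (−0.49 ± 0.08, adjusted p 5.20e-05). Both were separated between the groups. The Rieske iron-sulphur protein Uqcrfs1 fell by 0.29 ± 0.06 (adjusted p 9.86e-04) and the core protein Uqcrc2 by 0.18 (adjusted p 0.0138), and the call of Uqcrc2 ended, at differences of −0.17 to −0.18, with wild type arrays 1 to 4 alone, with arrays 5 to 8 alone and without arrays 5, 6 and 7 (adjusted p 0.0502 to 0.0526). The other core protein, Uqcrc1, had 9.80 to 9.82 in APT121, inside the 9.57 to 9.93 of wild type, a difference of 0.08 (interval −0.08 to 0.23). Uqcrb, a small accessory subunit like Uqcr11, differed by 0.06 (interval −0.13 to 0.25), and its 3 probe sets gave 0.05 to 0.09.

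**Figure D3:**
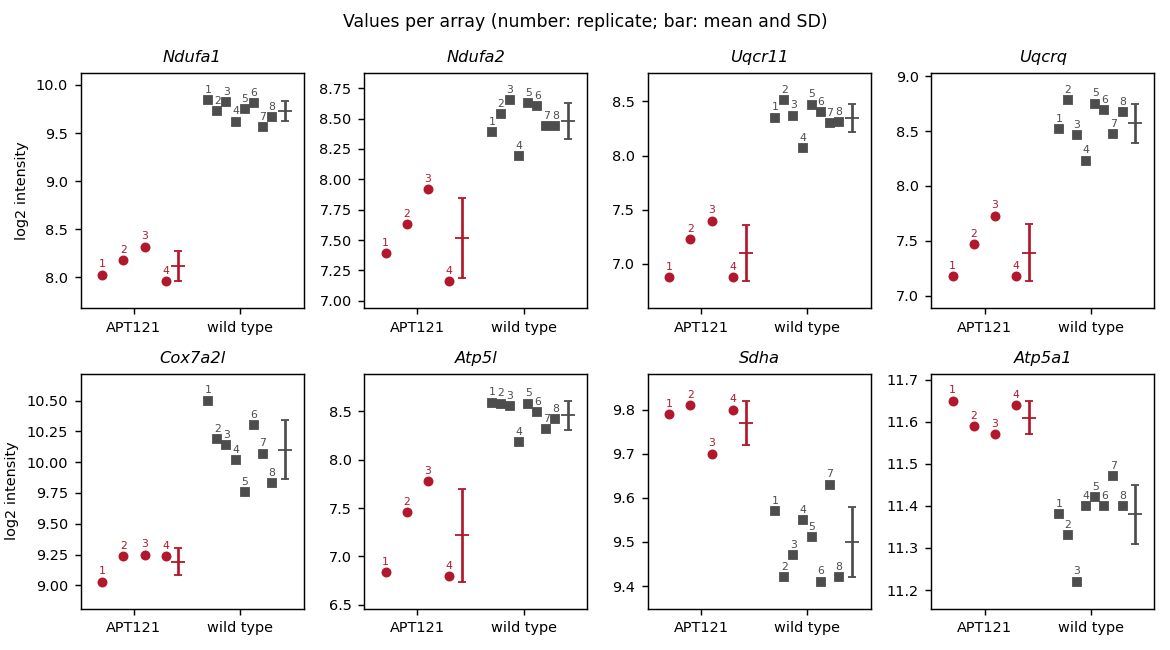
Log2 intensity (vertical axis) of 8 genes in each APT121 array (red circles) and wild type array (grey squares), numbered by replicate, with mean and SD at the right of each group. Ndufa1, Ndufa2, Uqcr11, Uqcrq, Cox7a2l and Atp5l lie lower in all 4 APT121 arrays than in all 8 wild type arrays, and Sdha and Atp5a1 lie higher. Vertical axes differ between panels and do not start at 0.

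In complex IV 9 of 17 genes (52.9%) fell, 8 did not pass and none rose, with a median of −0.21. Without APT121 array 2 the count that fell was 6. Against wild type arrays 1 to 4 alone it was 5 of the 17, beside 24.2% of all genes. Cox7a2l, a Cox7a relative that joins complexes III and IV into supercomplexes, fell most. It had 9.03, 9.24, 9.25 and 9.24 in APT121, against 9.76, 10.11 and 10.50 in wild type, a difference of −0.91 ± 0.11 (adjusted p 5.91e-06). The groups were separated, and wild type spread more widely (SD 0.24) than APT121 (SD 0.11). A second probe set of Cox7a2l gave a smaller fall, −0.69.

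The widely expressed subunits of complex IV fell in 7 of 10 cases, with a median of −0.32. Cox6a1 had 9.25, 9.47, 9.48 and 9.48 in APT121, against 9.80, 10.09 and 10.31 in wild type (−0.63 ± 0.09, adjusted p 2.36e-05). Cox7b had 8.90, 9.03, 9.24 and 8.72 in APT121, against 9.34, 9.57 and 9.73 in wild type (−0.57 ± 0.09, adjusted p 9.12e-05). Cox4i1, the regulatory subunit that binds ATP, had 9.95, 9.97, 9.97 and 9.95 in APT121, against 10.37, 10.46 and 10.59 in wild type (−0.51 ± 0.06, adjusted p 2.77e-06). None of these genes overlapped between the groups, and the APT121 arrays of Cox4i1 had an SD of 0.01. Cox8a fell by 0.38 ± 0.07 (adjusted p 1.92e-04). Cox5a and Cox7a2 fell by 0.25 and 0.21, with adjusted p of 0.0165 and 0.0451, calls that ended without APT121 array 1 (adjusted p 0.071 and 0.057) or array 4 (adjusted p 0.0606 and 0.0825). The call of Cox7a2 also ended without APT121 array 2 or 3, or wild type array 2, 5, 6, 7 or 8 (adjusted p 0.0556 to 0.11). Against wild type arrays 1 to 4 alone Cox5a and Cox7a2 differed by −0.17 and −0.08 and did not pass (adjusted p 0.159 and 0.368). Cox5b, Cox6c and Cox6b1 did not pass, at 0.02, 0.08 and −0.17. For Cox5b and Cox6c a second probe set gave the opposite sign, −0.01 and −0.06.

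Complex IV also has isoforms known from heart, skeletal muscle, brown fat, lung or testis, and 7 of them were measured. Cox6a2, of striated muscle, fell by 0.31 ± 0.09 (adjusted p 0.00969), and Cox4i2, of lung, by 0.21 ± 0.07 (adjusted p 0.0202). Both calls ended without APT121 array 2 (adjusted p 0.0545 and 0.0862). They ended too against wild type arrays 1 to 4 alone (−0.22 and −0.14, adjusted p 0.0742 and 0.143). Of 9 skeletal muscle markers 4 fell as well, with summed intensities of 1010 to 1070 in APT121 and 1338 to 1847 in wild type. Acta1 alone, with means of 9.67 in APT121 and 10.39 in wild type, makes up most of these sums. Myh1, Myh4, Mylpf, Tnni2 and Atp2a1 did not pass, with means of 3.40 to 5.29 in APT121 and 3.51 to 5.50 in wild type. The part of muscle transcripts in the differences of Cox6a2 and Cox4i2 was not tested. Cox7b2, Cox8c and Cox6b2 gave −0.12, −0.06 and 0.13 and did not pass.

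Cox8b and Cox7a1, which brown fat and striated muscle use, followed single wild type arrays. Cox8b had 3.71, 3.70, 4.03 and 4.01 in APT121, against 6.80 and 6.82 in wild type arrays 5 and 7 and 3.86 to 4.19 in the other wild type arrays. Cox7a1 had 5.64, 5.33, 5.33 and 5.35 in APT121, against 6.21 and 6.12 in wild type arrays 5 and 7 and 5.14 to 5.50 in the other wild type arrays. These are the arrays with Ucp1 and with Cidea, which were 5.82 and 6.32 there, against 3.47 to 4.28 in the other wild type arrays and 3.14 to 3.53 in APT121. The part of these transcripts in the values of Cox8b and Cox7a1 was not tested. Neither Cox8b (−0.86 ± 0.54, adjusted p 0.19) nor Cox7a1 (−0.11 ± 0.18, adjusted p 0.613) passed. Against wild type arrays 5 to 8 alone Cox8b was called lower (−1.60, adjusted p 0.039).

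**Figure D4:**
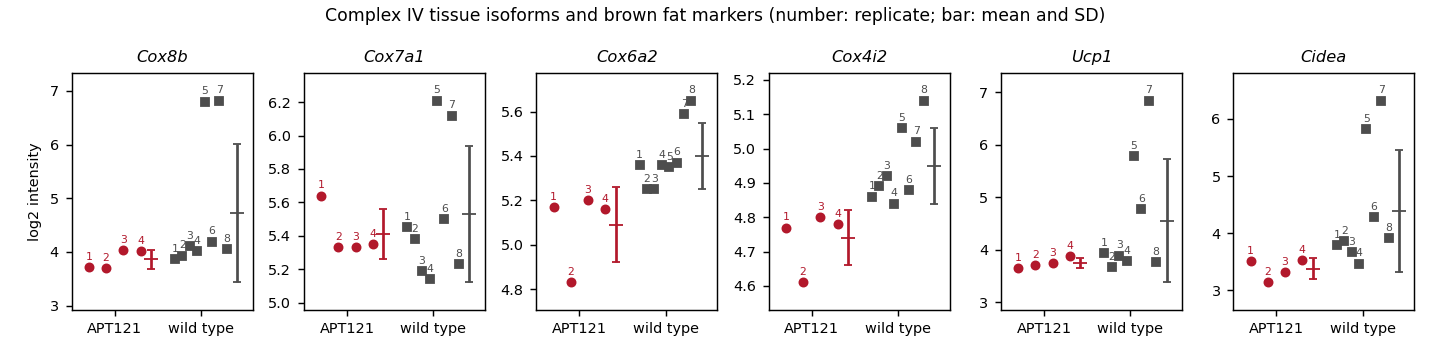
Log2 intensity (vertical axis) of 4 complex IV isoforms and the brown fat markers Ucp1 and Cidea in each APT121 array (red circles) and wild type array (grey squares), numbered by replicate, with mean and SD. Cox8b and Cox7a1 are high in wild type arrays 5 and 7, where Ucp1 and Cidea are high too. Vertical axes differ between panels and do not start at 0.

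In complex V 8 of 17 genes (47.1%) fell, 1 rose and 8 did not pass, with a median of −0.19. Without APT121 array 1 or without APT121 array 4 only 4 fell. Against wild type arrays 1 to 4 alone 4 of the 17 fell as well, a share near the 24.2% of all genes that fell there. Atp5l, subunit g of the membrane part, fell most. It had 6.84, 7.46, 7.78 and 6.80 in APT121, against 8.18, 8.52 and 8.59 in wild type, a difference of −1.25 ± 0.15 (adjusted p 4.18e-06). APT121 arrays 1 and 4 again lay lowest, and array 3 was still below the lowest wild type array. The 6 probe sets that carry the Atp5l symbol gave −1.06 to −1.25. They may read near-identical copies of the gene and are not independent.

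Atp5e, the epsilon subunit of the central stalk, had 7.96, 8.15, 8.41 and 8.07 in APT121, against 8.38, 8.89 and 9.03 in wild type (−0.67 ± 0.12, adjusted p 1.48e-04). Its APT121 array 3 lay just above wild type array 4, so the groups overlapped. The c-ring, which turns as protons pass, is encoded by 3 genes for the same mature protein, and all fell. Atp5g1 had 8.19, 8.20, 8.14 and 8.29 in APT121, against 8.34, 8.89 and 9.07 in wild type (−0.65 ± 0.10, adjusted p 7.64e-05). Atp5g2 had 10.17, 10.44, 10.50 and 10.13 in APT121, against 10.41, 10.58 and 10.75 in wild type (−0.27 ± 0.09, adjusted p 0.0174), with overlap. Atp5g3 fell by 0.19 (adjusted p 0.0225).

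The calls of Atp5g2, Atp5g3, Atp5c1 (−0.23, gamma subunit) and Atp5j (−0.19, coupling factor 6) ended without APT121 array 1 (adjusted p 0.0593 to 0.0822) or without array 4 (adjusted p 0.0573 to 0.0755). Atp5j2 (−0.24, subunit f) kept its call there and lost it with wild type arrays 1 to 4 alone (adjusted p 0.086). The catalytic head held the gene that rose. Atp5a1, the alpha subunit, had 11.65, 11.59, 11.57 and 11.64 in APT121, against 11.22, 11.40 and 11.47 in wild type, and rose by 0.23 ± 0.06 (adjusted p 0.00368) with no overlap. Atp5b, the beta subunit, had 11.98, 12.05, 12.03 and 11.99 in APT121, against 11.89, 12.01 and 12.08 in wild type, a difference of 0.01 (interval −0.11 to 0.13). Atp5d, the delta subunit, differed by −0.02 (interval −0.17 to 0.13). The peripheral stalk genes Atp5o, Atp5pb and Atp5h gave 0.18, −0.11 and −0.08, and the membrane genes Atp5md, Atp5mpl and Atp5k gave −0.24, −0.16 and −0.14, none of which passed. Atp5o was called higher without wild type array 5 (0.20, adjusted p 0.0466) or array 8 (0.20, adjusted p 0.0407) and with wild type arrays 1 to 4 alone (0.29, adjusted p 0.0087). The mean of the probe sets of Atp5pb was called lower (−0.20, adjusted p 0.0263).

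Within APT121 the genes that fell had a shared order of arrays. In 40 of the 48 (83.3%) the lowest value was in array 1 or 4, and in 33 (68.8%) the highest was in array 3. Over all 5987 genes that fell these shares were 48.4% and 34.7%. Among the 37 members that did not pass, array 1 or 4 was lowest in 26 and array 3 highest in 14. Among the 48 that fell, arrays 1 and 4 were each the lowest in 20. Some marker lists shared this order in part, with array 4 and seldom array 1 the lowest. Array 3 was the highest of the 4 for 6 of 6 fibroblast, 7 of 7 myeloid, 5 of 8 smooth muscle and 3 of 4 basal markers. Array 4 was the lowest for 6 of 6, 6 of 7, 8 of 8 and 3 of 4 of them, and for 5 of 5 cycling markers. Other lists differed. Array 3 was the lowest for 4 of 7 luminal markers, and array 4 the highest for 4 of 7. For endothelial markers array 1 was the highest in 4 of 7, and array 4 the lowest in 4 of 7. For adipose markers array 4 was the lowest in 0 of 6, and array 1 in 4 of 6. Array 1 or 4 was the lowest for 5 of 7 endothelial, 4 of 6 adipose and 3 of 7 luminal markers. Summed intensity in APT121 arrays 1 to 4 was 2329, 2447, 2888 and 1680 for fibroblast markers and 7552, 8593, 8958 and 6668 for smooth muscle markers. The part of these markers in the order of the members was not tested. Of the 48 calls, 39 held when any single array was left out, and 30 held in every limma setting that keeps all genes.

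Genes outside the symbol rule give the fall its setting. Of the 13 subunits encoded in mitochondrial DNA, 2 were measured, and neither passed: COX2 differed by −0.08 (adjusted p 0.304) and ND3 by −0.08 (adjusted p 0.434). Among 9 further subunits and electron carriers 2 rose and 2 fell (22.2% each, beside 22.8% and 30.0% of all genes), and 5 did not pass. Gpd2, the mitochondrial glycerol-3-phosphate dehydrogenase that feeds electrons to ubiquinone, rose by 0.75 ± 0.12 (adjusted p 5.66e-05), with 8.15, 8.09, 7.97 and 8.53 in APT121, against 7.23, 7.38 and 7.89 in wild type. Etfb, of the electron transfer flavoprotein, fell by 0.37, and Dhodh, of pyrimidine synthesis, by 0.28 (adjusted p 1.85e-04 and 0.00365). Cytochrome c (Cycs) and cytochrome c1 (Cyc1) differed by 0.05 and −0.08 and did not pass.

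Of 36 assembly factors of complexes I to V other than Ndufaf genes 15 (41.7%) fell, 5 (13.9%) rose and 16 did not pass. Of all genes 30.0% fell and 22.8% rose. The median of these factors was −0.09, equal to that of all genes. Cox17, the copper chaperone of complex IV, had 6.64, 6.76, 6.76 and 6.79 in APT121, against 7.54, 7.67 and 7.76 in wild type (−0.93 ± 0.06, adjusted p 3.26e-09). Surf1, another complex IV assembly factor, fell by 0.71 ± 0.08 (adjusted p 2.11e-06), and Uqcc3, of complex III, by 0.61 ± 0.07 (adjusted p 9.74e-07). All 3 were separated between the groups. Chosen after their values were seen, the 4 assembly factors of complex II (Sdhaf1 to Sdhaf4) all fell, by 0.24, 0.36, 0.51 and 0.60.

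Regulators of mitochondrial gene expression moved mostly the other way. Of 18 such genes 10 (55.6%) rose, 2 (11.1%) fell and 6 did not pass, with a median of 0.23, beside 22.8% and 30.0% of all genes. Ppargc1a, the coactivator PGC-1alpha that drives mitochondrial biogenesis, had 7.02, 6.89, 6.39 and 7.42 in APT121, against 4.71, 4.91 and 5.08 in wild type. Its difference of 2.00 ± 0.13 (adjusted p 3.88e-09) is a 4-fold rise, and every APT121 array exceeded every wild type array by more than 1 log2 unit. The brown fat marker Ucp1 was at 3.65 to 3.88 in the same APT121 arrays. Polg, the mitochondrial DNA polymerase, rose by 0.95 ± 0.06 (adjusted p 4.02e-09), and Tfam, which packages and transcribes mitochondrial DNA, by 0.68 ± 0.11 (adjusted p 8.71e-05). Nrf1 rose by 0.44 ± 0.10 (adjusted p 0.00153), with 6.52, 6.74, 6.52 and 6.43 in APT121, against 5.88, 6.10 and 6.43 in wild type, so that the groups met at their edge. Gabpa, the DNA-binding part of GABP, differed by 0.06 and did not pass. Named after its value was seen, Esrra, a nuclear receptor partner of PGC-1alpha, fell by 0.43 ± 0.07 (adjusted p 1.58e-04).

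**Figure D5:**
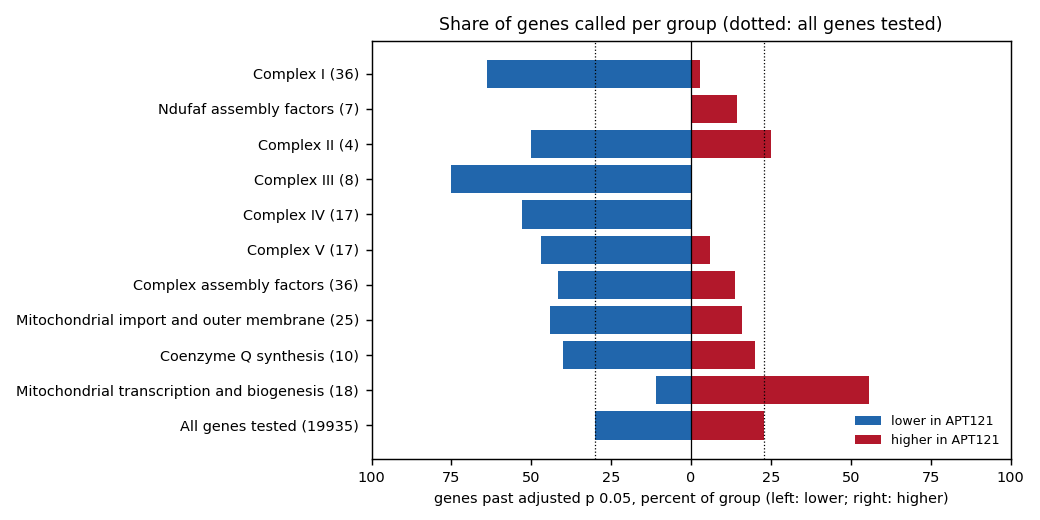
Percent of each gene group that fell (blue, to the left) and rose (red, to the right) in APT121 at an adjusted p under 0.05, with the number of genes measured in brackets and the shares of all genes tested as dotted lines. Complex III has 75.0% lower and complex I 63.9% lower against 30.0% of all genes, and the transcription and biogenesis group has 55.6% higher against 22.8%.

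Import and outer membrane genes numbered 25, of which 11 (44.0%) fell, 4 (16.0%) rose and 10 did not pass (median −0.13). Of all genes 30.0% fell and 22.8% rose. Tomm7, a small subunit of the outer membrane translocase, fell by 0.74 ± 0.09 (adjusted p 3.51e-06), and Timm17a, of the inner membrane translocase, by 0.72 ± 0.09 (adjusted p 3.38e-06). The ADP/ATP carriers moved in opposite directions. Slc25a4, the carrier known from heart and muscle, had 9.04, 9.38, 9.37 and 8.86 in APT121, against 9.85, 9.99 and 10.19 in wild type (−0.85 ± 0.10, adjusted p 2.01e-06). Slc25a5, the carrier known from proliferating cells and named after its value was seen, had 10.80, 10.82, 10.82 and 10.92 in APT121, against 10.08, 10.34 and 10.53 in wild type (0.52 ± 0.08, adjusted p 4.53e-05). In the same arrays 8 of 8 smooth muscle and 4 of 9 skeletal muscle markers fell and 5 of 5 cycling markers rose, and their part in these differences was not tested.

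Coenzyme Q synthesis, which makes the ubiquinone that links complexes I and II to III, had 4 genes that fell, 2 that rose and 4 that did not pass among 10 (median −0.11). The shares are 40.0% lower and 20.0% higher, beside 30.0% and 22.8% of all genes. Coq9, a lipid-binding factor needed by Coq7, had 8.27, 8.33, 8.25 and 8.27 in APT121, against 8.94, 9.05 and 9.10 in wild type (−0.76 ± 0.05, adjusted p 8.65e-09). Coq7 itself, a hydroxylase of the pathway, rose by 0.66 ± 0.10 (adjusted p 5.74e-05), and Coq2 fell by 0.42 ± 0.08 (adjusted p 2.06e-04). All 3 were separated between the groups. Of the uncoupling proteins Ucp3 fell by 0.28 (adjusted p 0.0185) at dim values of 3.63 to 3.89 in APT121 and 3.86 to 4.34 in wild type, a call that ended without APT121 array 3 (−0.23, adjusted p 0.0712), with quantile normalisation (−0.18, adjusted p 0.158) and, at −0.22 each, when only wild type arrays 1 to 4 were used (adjusted p 0.0998) or arrays 5, 6 and 7 were left out (adjusted p 0.0703). Ucp1 did not pass (−0.81, adjusted p 0.173).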

How the data were processed

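The authors deposited 1 intensity per transcript cluster (a probe set reading a whole transcript) and array, on a linear scale. The values come from RMA, per the submitters' processing notes, and the arrays are Affymetrix GeneChip Mouse Gene 1.0 ST, per the labels. The software and the genome build behind them are not given in the labels used here. RMA equalises the value distributions of arrays, which hides any difference in total RNA between cells. Array medians ran from 32.1 to 33.7. Arrays have no read depth, so precision depends on how many there are.

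Log2 was taken here. Of 28815 clusters, the 21780 with 1 symbol were kept, and for genes with several clusters the one with the highest mean, which left 19935 genes. Of the 89 members, 17 had more than 1 cluster. APT121 was compared with wild type by limma 3.58.1 under R 4.3.3 (genotype as the only term, 12 arrays, two-sided, Benjamini-Hochberg, threshold 0.05). The same fit was also run on simulated data with known changes. No set test was run, since members are not replicates.

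Members, gene lists and markers were chosen with earlier results of these data known. Full values were given for up to 8 members of complex I and 4 of each other complex that passed and differed most in either direction, and core subunits, isoforms and Ndufaf genes were always named. Up to 3 genes of each other list were named by the same measure, with Cycs, Cyc1, Ppargc1a, Tfam, Nrf1 and Gabpa. Printed promoter sequences are from RefSeq (GRCm38.p6), with up to 10 bases on each side of the motif. Alternatives were median centring, quantile normalisation, leaving out the 50% of genes with the lowest mean, eBayes with trend and robust options, the mean of a gene's clusters, a block by replicate number, 3 choices of wild type arrays, a SAM-type statistic with 100 permuted groupings at a 5% false discovery rate, and leaving out each array in turn.

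Replicate numbers 1 to 4 are shared by the labels of both groups, but no label ties equal numbers, and the deviations of same-numbered arrays correlated at 0.067, 0.059, 0.064 and −0.026 over genes. The numbers were therefore not taken as pairs.

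The marker lists not described with the results gave these counts: 2 of 6 lymphocyte markers rose and 1 fell, 3 of 7 seminal vesicle markers rose, and of 4 brown fat markers 1 rose, which was Ppargc1a.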

Additional observations from a re-analysis of the deposited data

Results flagged for a closer look

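Single arrays stood far from the rest of their group (the gap to the nearest other array, divided by the group's range, was above Dixon's 95% critical value) in 13 of 156 groups of values tested, and chance flags about 1 in 20 groups. Among APT121 arrays, array 1 was low for Cox7a2l (9.03, others 9.24 to 9.25) and Cox6a1 (9.25, others 9.47 to 9.48) and high for Cox7a1 (5.64, others 5.33 to 5.35). APT121 array 2 was low for Ndufs8 (7.54, others 7.66 to 7.68), Cox4i2 (4.61, others 4.77 to 4.80) and Cox6a2 (4.83, others 5.16 to 5.20), the last 2 at dim values. APT121 array 4 was low for Dhodh (6.14, others 6.35 to 6.39).

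Among wild type arrays, array 4 was low for Atp5g1 (8.34, others 8.86 to 9.07) and Ndufa4 (10.94, others 11.09 to 11.17). Array 5 was high for Ndufv3 (7.96, others 7.57 to 7.74) and Etfb (9.01, others 8.85 to 8.91), and array 7 was high for Ndufv1 (8.93, others 8.60 to 8.74) and Gpd2 (7.89, others 7.23 to 7.51). Wild type arrays 5 and 7 are those with brown fat transcripts, whose part in these values was not tested. The high Cox8b pair in those arrays was not picked out by this measure, which looks at 1 array at a time.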

How the results depend on the processing

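Of the 78 genes that the naming rule gave, 45 kept call and direction in every limma setting that tested them (the SAM-type statistic was not compared gene by gene, and dim genes have no value under the filter). The medians of all members and of complexes I to V stayed below 0 in every setting, and that of the Ndufaf genes crossed 0. The number of members higher in APT121, 4, was 7 with replicate number as a block, 9 against wild type arrays 1 to 4 alone, 7 without wild type arrays 5, 6 and 7, and 9 by the SAM-type statistic. The block also left 32 members lower and 8814 genes in all past the threshold, against 10527 without it, from 8 arrays in place of 12. The median difference of all members was −0.26 with median centring, −0.31 with quantile normalisation and −0.28 against wild type arrays 5 to 8. For complex I it was −0.33 with median centring, −0.38 with quantile normalisation, −0.24 with the block and against wild type arrays 1 to 4, and −0.33 against arrays 5 to 8. For the Ndufaf genes it was −0.12 with quantile normalisation. For complex II it was −0.29 with quantile normalisation, −0.09 with the block and against wild type arrays 1 to 4, −0.29 against arrays 5 to 8 and −0.13 without arrays 5, 6 and 7. For complex III it was −0.51 with quantile normalisation. For complex IV it was −0.26 with median centring, −0.31 with quantile normalisation, −0.14 with the block and against wild type arrays 1 to 4, and −0.34 against arrays 5 to 8. For complex V it was −0.10 with the block and against wild type arrays 1 to 4. Median centring moves the difference of every gene by the same amount, and it took the median of all genes from −0.09 to −0.15. With quantile normalisation the median of all genes was −0.06. The cause of the shifts in the other settings was not tested. Leaving out single arrays gave 41 to 51 members lower and 3 to 6 higher.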
